A study of Mus musculus with 13 samples.

Results

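Gluconeogenesis and glucose handling were followed through 9 genes in mouse liver: Pck1, G6pc, Fbp1, Pcx, Slc2a2, Slc37a4, Pklr, Pfkfb1 and Foxo1. They were chosen by name, and all 9 were found among the 54532 genes of the count table and passed the filter on low counts, which 14280 genes passed. The livers came from wild-type C57 BL6 mice, 8 weeks old and about 20 g in weight, and were profiled by RNA sequencing of bulk tissue. In the pretreated group (4 libraries) dmPGE2, a stable analogue of prostaglandin E2, was injected into the peritoneum at 300 µg/kg, 1 h before D-galactosamine at 500 mg/kg and lipopolysaccharide at 5 µg/kg (GalN/LPS). The GalN/LPS group (3 libraries) had the same injury without dmPGE2. The dmPGE2 group (3 libraries) had dmPGE2 at 300 µg/kg without the injury, and the saline group (3 libraries) had saline. All livers were collected at 6 h, but for dmPGE2 alone the labels do not give the time from dmPGE2 to collection as they do for the pretreated group. Galactosamine acts on hepatocytes by trapping their uridine nucleotides and so limiting their RNA synthesis. Whether the libraries are from separate animals is not stated in the labels, so the p-values measure only how far these samples spread.

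The liver makes glucose from lactate, alanine and glycerol and releases it into the blood between meals. Pyruvate is carried past the irreversible steps of glycolysis by pyruvate carboxylase (Pcx), cytosolic phosphoenolpyruvate carboxykinase (Pck1), fructose bisphosphatase (Fbp1) and the glucose phosphatase of the endoplasmic reticulum (G6pc), which is fed by the transporter encoded by Slc37a4. Glucose crosses the hepatocyte membrane through GLUT2, the product of Slc2a2. Pklr encodes liver pyruvate kinase, which runs the last step of glycolysis, and Pfkfb1 the liver enzyme that makes and degrades fructose 2,6-bisphosphate, the signal that sets the balance of both pathways. Glucagon, through cyclic AMP, and glucocorticoids raise transcription of Pck1 and G6pc. Insulin lowers it, in part by excluding the transcription factor FOXO1 from the nucleus.

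Library totals ranged from 14829838 to 20777809 counts. The deposited counts were scaled by TMM (trimmed mean of M values) factors and are given as CPM, counts relative to the scaled library total. Those factors were 0.683 to 0.830 in pretreated, 0.904 to 1.14 in GalN/LPS, 1.16 to 1.28 in dmPGE2 and 1.17 to 1.18 in saline libraries. Of 15 hepatocyte marker genes none was at 0, and their summed level was 181200 to 272500 CPM in pretreated, 117200 to 169000 in GalN/LPS, 90090 to 101100 in dmPGE2 and 116100 to 131800 in saline livers. In bulk tissue, fewer cells of a type and less RNA per cell cannot be told apart. The sum of 12 neutrophil and macrophage markers was 444 to 609 CPM in pretreated, 1018 to 1425 in GalN/LPS, 108 to 146 in dmPGE2 and 86.5 to 115 in saline livers. G6pc, Pck1, Fbp1 and Slc2a2 are also used by kidney, and Slc2a2 by pancreas and gut. Of 7 kidney markers 4 were at 0 in every library and the sum of all 7 stayed at or under 1.28 CPM. Of 9 pancreas and gut markers 5 were at 0 in every library. The sum of these 9 was 119.6 to 162.2 CPM in pretreated and 84.3 to 147.1 CPM in GalN/LPS livers. It was 61.0 to 72.5 CPM in dmPGE2 and 56.15 to 86.5 CPM in saline livers. Among them Cela1 averaged 54.1 CPM in pretreated and 18.5 CPM in saline livers, and Fabp2 87.2 and 54.3 CPM.

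In the coordinates of the deposited table (GRCm38/mm10 per the submitters' processing notes), Pck1 (ENSMUSG00000027513) spans chr2:173153048-173159273 and G6pc (ENSMUSG00000078650) chr11:101367561-101377903, both on the plus strand. Fbp1 (ENSMUSG00000069805) spans chr13:62864753-62888282 on the minus strand and Pcx (ENSMUSG00000024892) chr19:4510472-4621752 on the plus strand. Slc2a2 (ENSMUSG00000027690) lies at chr3:28697903-28731359, Slc37a4 (ENSMUSG00000032114) at chr9:44396852-44402968 and Pklr (ENSMUSG00000041237) at chr3:89136142-89146784. Pfkfb1 (ENSMUSG00000025271) lies at chrX:150588229-150643878 and Foxo1 (ENSMUSG00000044167) at chr3:52268336-52353221. These are whole genes, all 9 protein coding, and the counts are not split by exon or intron. Pfkfb1 overlaps Apex2 on the other strand, which had 19.5% as many counts as Pfkfb1, and Pklr overlaps Hcn3 on the other strand, which had 7.79% as many. Strand use in counting is not given in the sources, so reads from these overlaps cannot be assigned with certainty.

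Promoters are shown for 3 members: Pck1 and G6pc, the classical pair of hormone-regulated genes of the pathway, whose levels parted in these livers, and Slc37a4, which shared a motif with Pck1. Each runs from 250 bases before to 50 bases after the start site in RefSeq (GRCm38.p6), read along the gene, and capitals mark matches to the motifs searched. Pck1 is at chr2:173152823-173153122 on the plus strand, G6pc at chr11:101367466-101367765 on the plus strand, and Slc37a4 at chr9:44396696-44396995 on the plus strand.
Pck1: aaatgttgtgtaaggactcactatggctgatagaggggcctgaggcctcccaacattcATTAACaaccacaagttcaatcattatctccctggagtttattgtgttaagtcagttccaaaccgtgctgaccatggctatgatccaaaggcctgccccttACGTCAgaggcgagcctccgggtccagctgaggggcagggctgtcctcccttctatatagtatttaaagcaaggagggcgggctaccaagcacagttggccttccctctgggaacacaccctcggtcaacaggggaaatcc
G6pc: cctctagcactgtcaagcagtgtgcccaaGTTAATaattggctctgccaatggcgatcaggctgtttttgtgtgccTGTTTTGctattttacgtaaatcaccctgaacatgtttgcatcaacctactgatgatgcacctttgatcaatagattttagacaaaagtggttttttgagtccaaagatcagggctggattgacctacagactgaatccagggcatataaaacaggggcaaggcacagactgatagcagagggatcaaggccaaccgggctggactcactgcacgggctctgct
Slc37a4: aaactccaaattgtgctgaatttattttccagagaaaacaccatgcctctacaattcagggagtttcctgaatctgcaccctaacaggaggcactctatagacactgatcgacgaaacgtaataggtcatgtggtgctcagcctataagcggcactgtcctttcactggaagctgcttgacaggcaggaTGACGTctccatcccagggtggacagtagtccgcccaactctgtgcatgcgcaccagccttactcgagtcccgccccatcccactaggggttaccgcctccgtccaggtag
The RefSeq starts lie 25, 155 and 94 bases downstream of the gene starts in the deposited table for Pck1, G6pc and Slc37a4.

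ACGTCA, part of the cAMP response element, was found on the plus strand of the Pck1 promoter at bases -91 to -86 from the start and on the minus strand of the Slc37a4 promoter at -61 to -56, where the printed strand reads TGACGT. In the rat, a cAMP response element in the proximal promoter of Pck1 is a known target of cyclic AMP signals. CAAAACA, the core of insulin response sequences, was found on the minus strand of the G6pc promoter at -174 to -168. GTTAAT, part of the HNF1 site, was found in Pck1 on the minus strand at -192 to -187 and in G6pc on the plus strand at -221 to -216. The other motifs searched, also on both strands, were GTAAACA (FOXO), CACGTG (the E box of carbohydrate response elements) and CAAAGTC (part of an HNF4 site). RefSeq gave 16 promoters for the 9 genes, some of which overlap. Among these, CACGTG was found in 1 (Pcx), GTTAAT also in 1 of Pfkfb1, ACGTCA in a second promoter of Slc37a4 that overlaps the first, and GTAAACA and CAAAGTC in none. Of all 32851 promoters in that table, 7.51% held ACGTCA, 6.28% CAAAACA, 7.1% GTTAAT, 7.15% CACGTG, 3.65% GTAAACA and 4.44% CAAAGTC. None of these motifs overlaps another in the 3 promoters printed. A match says only that the letters are there. Only exact letters were searched, so a promoter without a match may still hold a variant of the site.

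Of the gluconeogenic enzymes, Pck1 and G6pc followed different courses. Pck1 was at 3004, 3034, 2944 and 2595 CPM in pretreated livers, against 1098, 1437 and 1203 CPM in GalN/LPS livers. It was at 1162, 1092 and 1181 CPM in dmPGE2 livers, against 1902, 2384 and 2975 CPM in saline livers. All dmPGE2 and all GalN/LPS livers were thus below all saline livers, while the pretreated livers overlapped the saline range. G6pc was at 47.6, 43.9, 46.1 and 34.4 CPM in pretreated livers, against 24.0, 26.2 and 34.5 CPM in GalN/LPS livers. It was at 150.2, 179 and 177.5 CPM in dmPGE2 livers, against 202.8, 193.2 and 214.9 CPM in saline livers. Both injured groups lay far below both uninjured groups, and the lowest pretreated library met the highest GalN/LPS library.

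Fbp1 was at 1358, 1191, 1290 and 1158 CPM in pretreated livers, against 672, 870 and 734 CPM in GalN/LPS livers. It was at 1247, 1211 and 1253 CPM in dmPGE2 livers, against 904, 615 and 984 CPM in saline livers. With TMM, the pretreated and the dmPGE2 livers all lay above the GalN/LPS and the saline livers. With library totals the pretreated livers overlapped both the GalN/LPS and the saline livers. Pcx, the enzyme that opens the pathway, was at 930, 862, 811 and 819 CPM in pretreated livers, against 344, 558 and 408 CPM in GalN/LPS livers. It was at 565, 540 and 553 CPM in dmPGE2 livers, against 431, 293 and 395 CPM in saline livers. Its pretreated values lay above those of every other group with TMM, but overlapped those of the dmPGE2 group with library totals.

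Among the transporters, Slc2a2 was at 406, 484, 594 and 515 CPM in pretreated livers, against 273, 305 and 245 CPM in GalN/LPS livers. It was at 357, 311 and 380 CPM in dmPGE2 livers, against 287, 314 and 251 CPM in saline livers. The pretreated livers were above all others with TMM, but with library totals they overlapped every other group. The saline livers overlapped both the dmPGE2 and the GalN/LPS livers, and the dmPGE2 livers were all above the GalN/LPS livers. Slc37a4 was at 408, 421, 356 and 319 CPM in pretreated livers, against 167, 179 and 201 CPM in GalN/LPS livers. It was at 299.5, 249 and 332 CPM in dmPGE2 livers, against 226, 199 and 205 CPM in saline livers. With TMM, pretreated and dmPGE2 livers were all above the saline livers, which overlapped the GalN/LPS livers. With library totals the pretreated livers overlapped the saline livers.

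On the glycolytic side, Pklr was at 211, 261, 208 and 158 CPM in pretreated livers, against 127, 91.5 and 107.5 CPM in GalN/LPS livers. It was at 377, 151 and 269 CPM in dmPGE2 livers, against 220.5, 202.5 and 137 CPM in saline livers. The dmPGE2 livers were the most scattered. The GalN/LPS livers were below all others with TMM, but overlapped the pretreated livers with library totals. Pfkfb1 was at 49.1, 27.3, 27.9 and 19.4 CPM in pretreated livers, against 10.4, 14.4 and 8.40 CPM in GalN/LPS livers. It was at 43.9, 44.9 and 47.8 CPM in dmPGE2 livers, against 34.4, 28.1 and 33.2 CPM in saline livers. With TMM, pretreated library 1 was above every library of both uninjured groups, and pretreated libraries 2, 3 and 4 were below them all. With library totals pretreated library 1 lay within the saline range. The GalN/LPS livers were again lowest.

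Foxo1, the transcription factor of the set, was at 3.33, 3.55, 3.00 and 2.03 CPM in pretreated livers, against 5.52, 5.74 and 6.10 CPM in GalN/LPS livers. It was at 22.6, 17.2 and 21.5 CPM in dmPGE2 livers, against 23.7, 21.9 and 23.3 CPM in saline livers. It was the one member whose pretreated livers were all below the GalN/LPS livers. Pretreated library 4 was the lowest pretreated library for 7 of the 9 members, and the highest for none. It has the lowest TMM factor, which raises its CPM.

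**Figure D1:**
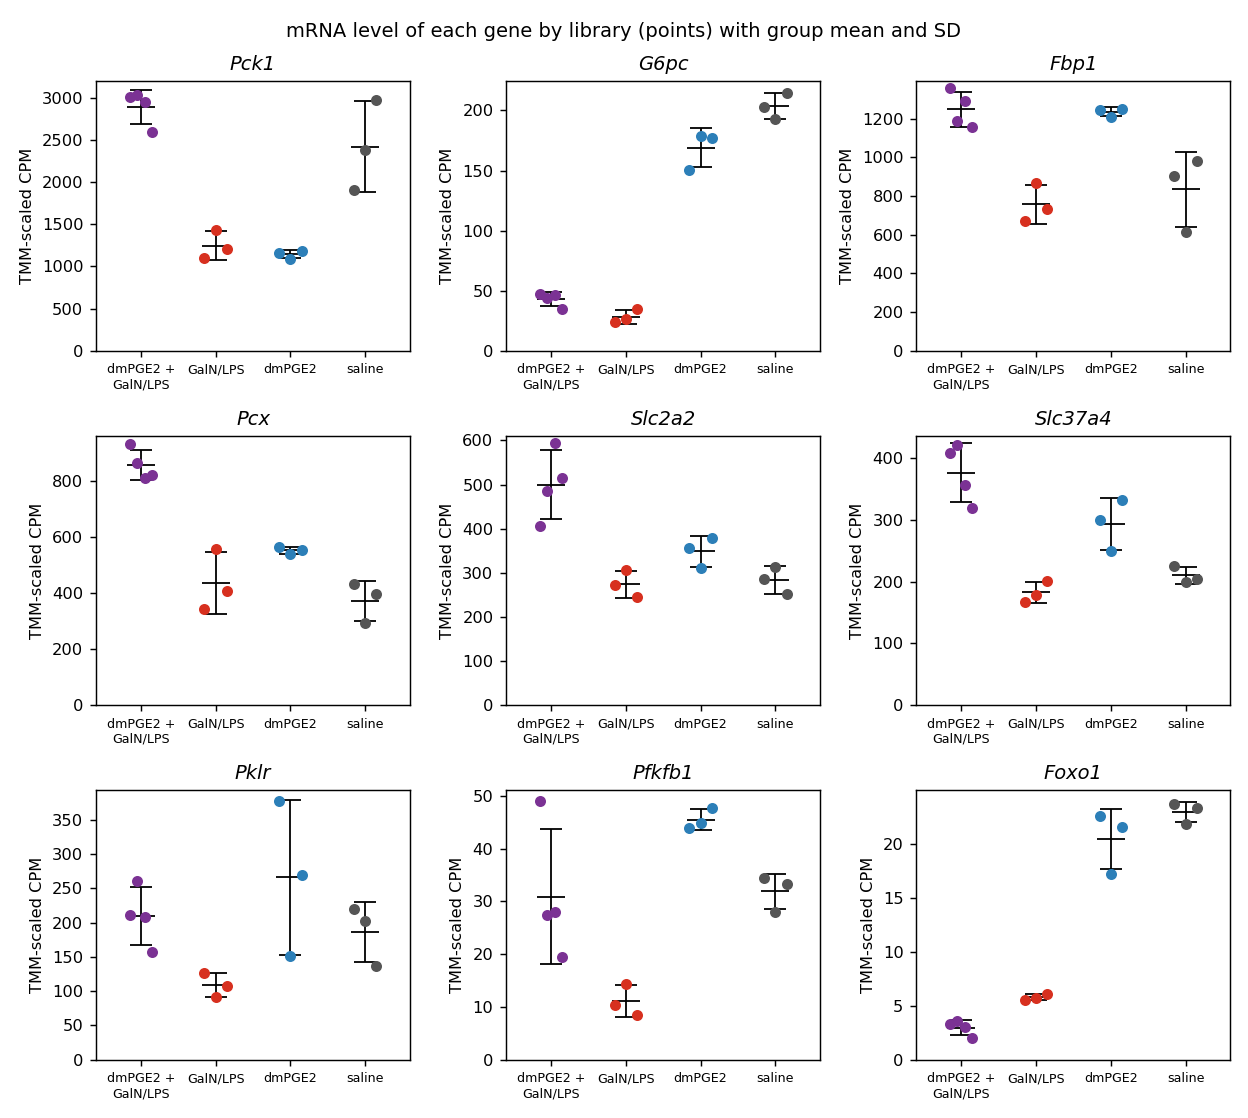
TMM-scaled CPM of the 9 genes in each library (points), with the group mean and SD (bars), for 4 pretreated (dmPGE2 + GalN/LPS), 3 GalN/LPS, 3 dmPGE2 and 3 saline livers. G6pc and Foxo1 are low in both injured groups. Pck1 is lowest in GalN/LPS and in dmPGE2 livers and overlaps saline in pretreated livers. Under library totals and hepatocyte marker factors Pck1 is lower in pretreated than in saline livers, at -0.41 and -0.60 on the log2 scale. Pcx and Slc2a2 are highest in pretreated livers with TMM, but with library totals both overlap the dmPGE2 livers.

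Levels of different genes were compared per transcript length, in the deposited FPKM. Pck1 and Fbp1 were the most abundant pair in every group. Pck1 averaged 817 ± 58.5 FPKM in pretreated (SD, n = 4), 365 ± 37.1 in GalN/LPS, 338 ± 16.7 in dmPGE2 and 716 ± 154.5 FPKM in saline livers (SD, n = 3 each). Fbp1 averaged 711 ± 60.5 FPKM in pretreated (n = 4), 448 ± 43.0 in GalN/LPS, 736 ± 20.0 in dmPGE2 and 497 ± 113.6 FPKM in saline livers (n = 3 each). Pck1 came before Fbp1 in pretreated and saline livers, with overlapping ranges, and Fbp1 before Pck1 in GalN/LPS and dmPGE2 livers, without overlap. G6pc changed place most: at 17.3 ± 2.47 FPKM in pretreated and 11.8 ± 2.39 FPKM in GalN/LPS livers it was above only Pfkfb1 and Foxo1, and its range overlapped neither neighbour's. It was at 70.8 ± 7.14 FPKM in dmPGE2 livers, where its range overlapped those of Pklr and Slc2a2, and at 85.7 ± 4.00 FPKM in saline livers, where only Pck1 and Fbp1 were above it and its range overlapped that of Pcx. Pfkfb1 (7.48, 2.76, 11.5 and 8.06 FPKM in pretreated, GalN/LPS, dmPGE2 and saline livers) and Foxo1 (0.333, 0.673, 2.39 and 2.69 FPKM in the same groups) were the lowest in all 4 groups, with ranges apart from those above them.

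GalN/LPS livers set against saline livers show what the injury did alone. In them 5 of the 9 genes were lower and none higher, the final enzyme of glucose release, G6pc, most of all. The other 4, Fbp1, Pcx, Slc2a2 and Slc37a4, did not pass the test. Over all genes tested, 52.9% passed in this comparison, 27.4% higher and 25.6% lower. The median log2 fold change of the 9 was -0.78, against 0.03 for all genes. G6pc was 7.21-fold lower (log2 fold change -2.85 ± 0.17 SE, adjusted p = 1.53e-09), by edgeR's quasi-likelihood test with Benjamini-Hochberg adjustment over all 14280 genes, which applies to every adjusted p below unless another tool is named. Foxo1 was 3.96-fold lower (-1.99 ± 0.17, adjusted p = 1.14e-07) and Pfkfb1 2.89-fold lower (-1.53 ± 0.26, adjusted p = 1.41e-04). Pck1 fell by less, 1.94-fold (-0.96 ± 0.18, adjusted p = 2.96e-04). Pklr had a log2 fold change of -0.78 ± 0.27 (adjusted p = 0.0238), but this call was lost without saline 1 (0.0872), saline 2 (0.0615) or GalN/LPS 2 (0.0834). In all 5 genes no GalN/LPS library reached the lowest saline library. Of all genes tested, 59.7% did not overlap in this comparison, 30.3% higher and 29.5% lower.

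The genes that did not pass in GalN/LPS livers had intervals that included zero. The log2 fold change was -0.05 (95% interval -0.39 to 0.29) for Slc2a2, -0.14 (-0.51 to 0.24) for Fbp1 and -0.20 (-0.52 to 0.12) for Slc37a4. For Pcx it was 0.23 (-0.16 to 0.61). None of the 15 hepatocyte markers passed the test here (median 0.14), while all 12 neutrophil and macrophage markers were higher (median 5.77). Scaling by library totals or by the hepatocyte markers alone kept the same 5 genes called, with medians of -0.93 and -0.92.

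Pretreated livers set against GalN/LPS livers show how the genes differed when dmPGE2 came before the injury. In them 8 of the 9 genes were higher and Foxo1 was lower. Over all genes 54.5% passed, 24.4% higher and 30.1% lower. The median of the 9 was 0.95, against -0.10 for all genes. Pfkfb1 was 2.81-fold higher (log2 fold change 1.49 ± 0.25, adjusted p = 2.58e-04) and Pck1 2.32-fold higher (1.22 ± 0.17, adjusted p = 6.62e-05). Slc37a4 was 2.06-fold (1.04 ± 0.14) and Pcx 1.96-fold higher (0.97 ± 0.17), with adjusted p of 5.92e-05 and 3.91e-04. Pklr, Slc2a2 and Fbp1 were higher by 0.95 ± 0.26, 0.87 ± 0.15 and 0.72 ± 0.17. In these 7 genes every pretreated library was above every GalN/LPS library with TMM. Of all genes 50.4% did not overlap in this comparison, 22.7% higher and 27.7% lower. With library totals Slc37a4, Pklr, Slc2a2 and Fbp1 overlapped, and Pfkfb1, Pck1 and Pcx did not. G6pc moved least, 1.52-fold higher (0.61 ± 0.15, adjusted p = 0.00328), and its groups overlapped. Foxo1 was 1.93-fold lower (-0.95 ± 0.18, adjusted p = 5.30e-04).

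How many of the 8 genes were higher depended on the scaling. With library totals 4 were higher (Pck1, Pfkfb1, Pcx and Slc37a4) and with factors from the hepatocyte markers 2 (Pck1 and Pfkfb1), and Foxo1 was lower with each. Those scalings moved the median of all genes from -0.10 to -0.61 and -0.82, and the share of called genes that were higher from 44.7% to 8.3% and 2.2%. The hepatocyte markers themselves were higher in 13 of 15 cases under TMM, with a median of 0.79, close to the median of the 9 genes. Set against the hepatocyte markers, Pck1 was higher by 0.52 (adjusted p = 0.00659) and Pfkfb1 by 0.81 (adjusted p = 0.0112). Under the same factors Fbp1 was at 0.02, Slc2a2 at 0.15, Pklr at 0.22, Pcx at 0.29, Slc37a4 at 0.33 and G6pc at -0.12, none of which passed. Neutrophil and macrophage markers were lower in 12 of 12 cases under TMM (median -1.36). The part of cell makeup in these fold changes was not tested.

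**Figure D2:**
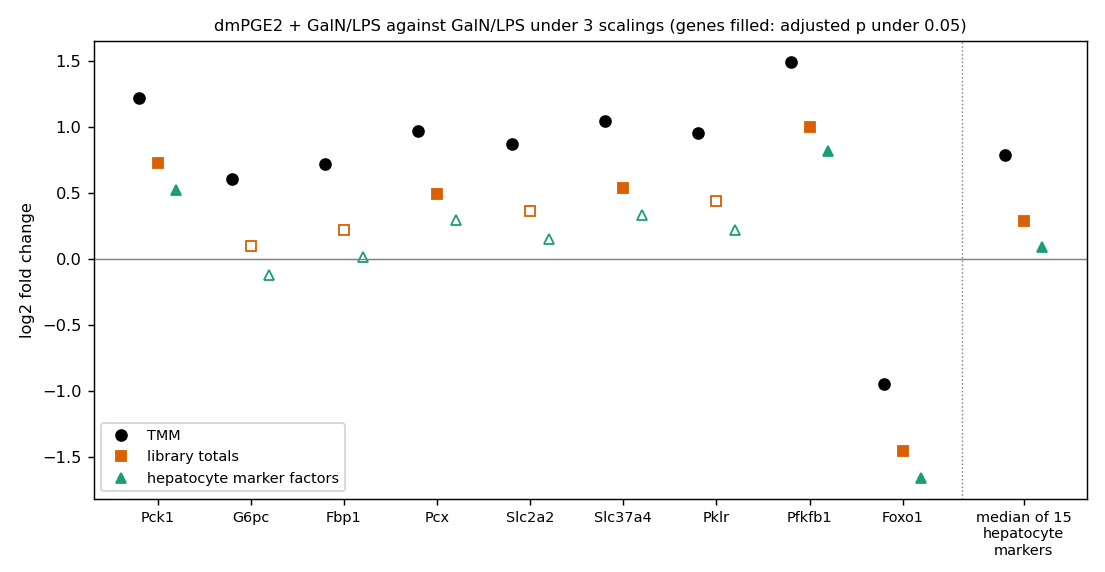
Log2 fold change of each gene in pretreated (n = 4) against GalN/LPS livers (n = 3) with TMM, with library totals and with factors from the 15 hepatocyte markers (filled symbols have adjusted p under 0.05), and the median of those markers at the right. Pck1 and Pfkfb1 stay above zero and past the test with all 3 scalings, Foxo1 stays below zero, and G6pc is 0.61 with TMM and -0.12 with hepatocyte marker factors.

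dmPGE2 livers set against saline livers show what the prostaglandin analogue did without the injury. Here no gene passed by edgeR's quasi-likelihood test with Benjamini-Hochberg adjustment, among the 9 or among all 14280 genes (0.0%). At an unadjusted p under 0.05 there were 1990 genes, with 4 of the 9 among them (Pck1, Fbp1, Pcx and Slc37a4). DESeq2 called 277 genes, with Pck1 and Fbp1 among them, and limma on log2(FPKM + 1) called 16, with Pck1 among them. Pck1 was 2.11-fold lower (log2 fold change -1.08 ± 0.18), with no overlap between dmPGE2 and saline livers, and missed the threshold in edgeR (adjusted p = 0.0628). It passed in edgeR with no filter on low counts (2.28e-05), with hepatocyte marker factors (0.0424) and without saline 1 (0.0280), and also in DESeq2 (adjusted p = 3.15e-08) and limma (adjusted p = 0.0320). Over its 14 alternatives the log2 fold change lay between -1.22 and -0.86, and the highest adjusted p was 0.228.

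The dmPGE2 livers also did not overlap the saline livers for G6pc, which was lower, and for Fbp1, Pcx, Slc37a4 and Pfkfb1, which were higher. Among all genes tested, 26.3% did not overlap in this comparison, 14.3% higher and 12.0% lower. The log2 fold changes were -0.27 (95% interval -0.60 to 0.06) for G6pc and 0.57 (0.19 to 0.94) for Fbp1. They were 0.57 (0.18 to 0.95) for Pcx, 0.48 (0.16 to 0.80) for Slc37a4 and 0.51 (-0.02 to 1.04) for Pfkfb1. Foxo1, with -0.16 (-0.50 to 0.17), Slc2a2 and Pklr overlapped between the groups. Pck1 and G6pc thus lay below saline in these livers and Fbp1 and Pcx above it, and none of these differences passed edgeR's adjusted test. The hepatocyte markers had a median of -0.22, with 0 of 15 called.

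Pretreated livers set against saline livers show where the genes stood after both agents. G6pc and Foxo1 were lower, at 4.73-fold (log2 fold change -2.24 ± 0.15, adjusted p = 7.07e-09) and 7.64-fold (-2.93 ± 0.17, adjusted p = 2.55e-09). Pcx was 2.29-fold higher (1.20 ± 0.18, adjusted p = 2.39e-05), and Slc37a4 (0.84 ± 0.14), Slc2a2 (0.82 ± 0.15) and Fbp1 (0.58 ± 0.17) were higher as well. Pck1 (0.26, 95% interval -0.09 to 0.61), Pklr (0.17, -0.37 to 0.71) and Pfkfb1 (-0.04, -0.55 to 0.46) did not pass. In the 6 genes called, pretreated and saline libraries did not overlap with TMM, as in 61.8% of all genes (32.6% higher, 29.2% lower). With library totals Slc37a4, Slc2a2 and Fbp1 overlapped. The 6 calls stand beside 65.0% of all genes called, 34.8% higher and 30.2% lower, and the median of the 9 was 0.26 against 0.14 for all genes. With library totals 1 of the 9 was higher (Pcx) and 4 were lower, and with hepatocyte marker factors 0 were higher and 4 lower by edgeR's quasi-likelihood test. Under both of these scalings the lower genes were G6pc, Foxo1, Pck1 and Pfkfb1, so that only the falls of G6pc and Foxo1 held under every scaling run. Pck1 was at -0.41 with library totals and -0.60 with hepatocyte marker factors. Its highest value over 15 alternatives was 0.44, and it was called higher in a run with a library left out.

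**Figure D3:**
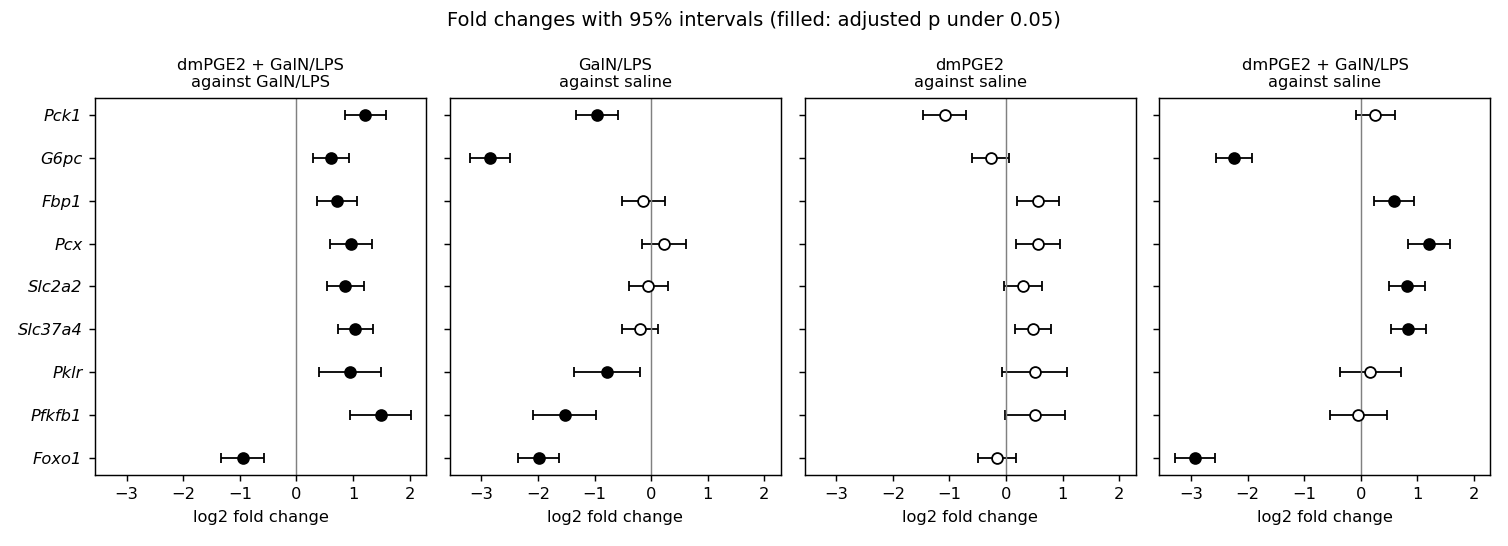
Log2 fold changes of the 9 genes with 95% intervals from the edgeR fit of all 13 libraries, in 4 comparisons (filled symbols have adjusted p under 0.05). G6pc and Foxo1 lie far below zero in both comparisons of injured with saline livers, and Pck1 lies near -1 in GalN/LPS and in dmPGE2 livers against saline but above zero in pretreated against GalN/LPS livers.

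The difference itself was tested as the effect of GalN/LPS in livers that had dmPGE2, less its effect in livers that had none. This interaction passed for 5 of the 9 genes, against 35.0% of all genes (15.4% positive and 19.6% negative). Pck1 stood out in size, at 2.30 ± 0.25 on the log2 scale (adjusted p = 8.68e-05). The mean of Pck1 was 2894 ± 203 CPM in pretreated (SD, n = 4), 1246 ± 173 in GalN/LPS, 1145 ± 46.6 in dmPGE2 and 2420 ± 537 CPM in saline livers (SD, n = 3 each). Of the differences from saline behind it, that of dmPGE2 livers missed edgeR's threshold (adjusted p = 0.0628), and that of pretreated livers was 0.26 with TMM, which did not pass, and -0.41 and -0.60 with library totals and hepatocyte marker factors, which did. Over 15 alternatives the difference of pretreated from saline livers lay between -0.60 and 0.44, and 3 passed. It was lower with these scalings and higher in a run with a library left out. Over all 20 alternatives the interaction of Pck1 kept its sign and passed, with values from 1.39 to 2.45 and adjusted p up to 0.00138. The times after dmPGE2 may differ between the groups, and their part in this was not tested.

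The interactions of the other genes were smaller. G6pc (0.88 ± 0.21, adjusted p = 0.00715), Pfkfb1 (0.97 ± 0.35, adjusted p = 0.0420) and Slc37a4 (0.56 ± 0.21, adjusted p = 0.0456) were positive, and Foxo1 was negative (-0.78 ± 0.24, adjusted p = 0.0207). Slc2a2 missed the threshold at 0.57 ± 0.22 (adjusted p = 0.0551), and Fbp1 (0.15), Pcx (0.40) and Pklr (0.44) did not pass. Hepatocyte markers had a median interaction of 1.05, with 13 of 15 positive. With library totals 2 of the 9 passed (Pck1 positive, Foxo1 negative), and with hepatocyte marker factors 3 passed, Pck1 again the positive one and Foxo1 and Fbp1 negative (Fbp1 at -0.76). Single libraries decided several of the smaller interactions, and the count of the 9 lay between 2 and 6 when each library was left out in turn. It was 2 without GalN/LPS 3 or without dmPGE2 1, and 3 without saline 1, GalN/LPS 1, dmPGE2 2 or dmPGE2 3.

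Ratios of opposed enzymes within a library need no scaling between libraries. They were taken from the FPKM and are given as a description, with no test. Pck1 over Pklr ranged from 11.0 to 15.5 in pretreated, 8.19 to 14.8 in GalN/LPS, 2.91 to 6.83 in dmPGE2 and 8.14 to 20.5 in saline livers. The dmPGE2 livers lay below all others, which overlapped. Fbp1 over Pfkl, the liver phosphofructokinase, ranged from 98.5 to 154.6 in pretreated, 60.0 to 115.9 in GalN/LPS, 204 to 213 in dmPGE2 and 129 to 144 in saline livers. The dmPGE2 livers lay above all others and the GalN/LPS livers below saline.

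**Figure D4:**
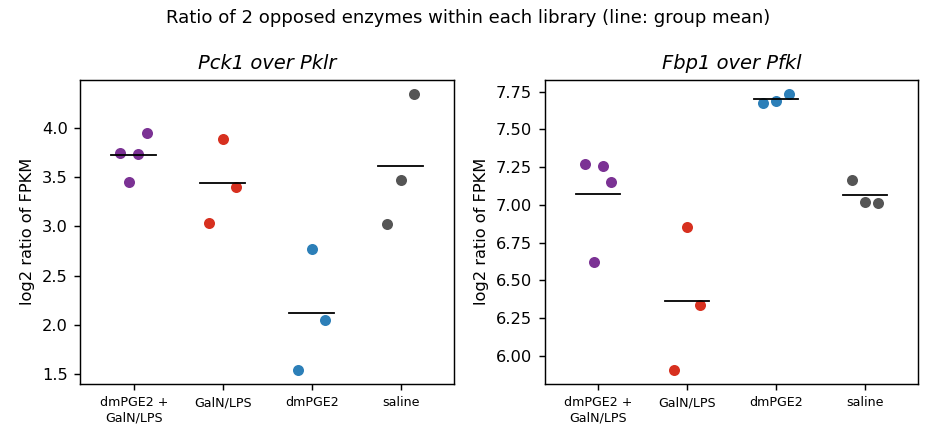
Log2 ratio of FPKM of opposed enzymes in each of the 13 libraries (points; lines are group means) for Pck1 over Pklr and Fbp1 over Pfkl. In dmPGE2 livers Pck1 over Pklr is lowest and Fbp1 over Pfkl is highest.

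Other enzymes and carriers of gluconeogenesis were, like the 9 genes and the hepatocyte markers, mostly higher after pretreatment under TMM. Of the 24 measured, 1 was lower and 21 were higher in pretreated against GalN/LPS livers (median log2 fold change 0.75, all genes -0.10). Among all genes tested 24.4% were higher and 30.1% lower. Of the hepatocyte markers 13 of 15 were higher, with a median of 0.79. Tyrosine aminotransferase (Tat) averaged 2117 ± 168 CPM in pretreated (SD, n = 4) and 613 ± 114 CPM in GalN/LPS livers (n = 3), a log2 fold change of 1.79 ± 0.32 (adjusted p = 3.54e-04). The alanine aminotransferase Gpt2 averaged 781 ± 28.1 and 320 ± 37.6 CPM in the same groups (1.29 ± 0.15, adjusted p = 1.38e-05). The 1 lower gene was Gapdh, named after its value was seen, at 1.25 to 4.68 CPM in pretreated and 3.97 to 54.6 CPM in GalN/LPS livers. This call rested on GalN/LPS 3, without which its log2 fold change was -0.47 (adjusted p = 0.361) in place of -2.83. Gapdh has many near-identical pseudogene copies, and its counts are uncertain. With library totals 7 were higher and 2 lower, and with hepatocyte marker factors 2 higher and 3 lower, Tat and Gpt2 being the 2 higher ones (1.09 and 0.58). GalN/LPS livers against saline livers had 3 higher and 5 lower of the 24 (median 0.06, all genes 0.03), Gpt2 (-0.49 ± 0.15) among the lower. A larger share of all genes was called in that comparison, 27.4% higher and 25.6% lower. Tat was at 484, 700 and 656 CPM in GalN/LPS livers, against 641, 974.6 and 2071 CPM in saline livers, which overlapped. Its log2 fold change of -1.0 ± 0.32 passed, but was -0.41 without saline 3 (adjusted p = 0.189) and -0.86 without GalN/LPS 1 (adjusted p = 0.0641).

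Glycolysis and sugar entry genes moved in both directions. In GalN/LPS livers 13 of 18 were higher than in saline and 2 lower (median 2.16, all genes 0.03), and with pretreatment 6 of the 18 were higher and 11 lower against GalN/LPS livers (median -1.26). The shares of all genes were 27.4% higher and 25.6% lower in the first comparison, and 24.4% and 30.1% in the second. The hexokinases Hk2 (4.32 ± 0.34) and Hk1 (3.92 ± 0.32), the glucose transporter Slc2a3 (4.83 ± 0.40) and the kinase isoform Pfkfb3 (3.28 ± 0.30), all typical of cells other than resting hepatocytes, rose in GalN/LPS livers against saline livers. In pretreated against GalN/LPS livers they were lower, at -1.66 ± 0.27, -1.66 ± 0.26, -1.23 ± 0.28 and -1.91 ± 0.25. Markers of other cell types moved the same ways. Neutrophil and macrophage markers were higher in GalN/LPS than in saline livers in 12 of 12 cases, and in pretreated against GalN/LPS livers 12 of 12 were lower. Endothelial and stellate markers were higher in 9 of 10 and then lower in 9 of 10 (medians 2.09 and -1.54), and summed to 134 to 382 CPM in pretreated, 528 to 804 in GalN/LPS, 116 to 130.1 in dmPGE2 and 92.2 to 134 CPM in saline livers. Of 5 erythroid markers tested, 5 were higher in the first comparison, and 1 was higher and 3 were lower in the second. The part of these cell types in the changes was not tested. In pretreated against GalN/LPS livers 0 of the 18 were higher and 11 lower with library totals, and 0 higher and 12 lower with hepatocyte marker factors, by edgeR's test, where the median of all genes was -0.61 and -0.82.

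Of 17 glycogen genes, 11 were higher and 5 lower in pretreated against GalN/LPS livers (median 0.71), where 24.4% of all genes were higher and 30.1% lower. In GalN/LPS against saline livers 3 were higher and 5 lower (median 0.11), a smaller share called than the 52.9% of all genes. The liver glycogen synthase Gys2 was at 0.71 ± 0.19 in pretreated against GalN/LPS livers and at -0.94 ± 0.20 in GalN/LPS against saline livers. The liver phosphorylase Pygl was at 0.77 ± 0.15 and 0.41 ± 0.16 in the same comparisons, and the second call was lost without any 1 of saline 1, 2 or 3 or GalN/LPS 2 or 3 (adjusted p from 0.0676 to 0.172). Ppp1r3b, which targets a phosphatase to liver glycogen, was lower in both, at -0.93 ± 0.24 and -2.34 ± 0.26. With library totals the first count was 5 higher and 5 lower, and with hepatocyte marker factors 1 higher and 6 lower.

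Hormone receptor and insulin signalling genes gave 5 higher and 7 lower of 17 in pretreated against GalN/LPS livers (median -0.45) and 5 higher and 3 lower in GalN/LPS against saline livers (median 0.18). Over all genes 54.5% and 52.9% passed in these comparisons, and the share of this list called in the second was below that. Igfbp1, a liver-secreted binding protein lowered by insulin, averaged 256.6 ± 64.6 CPM in pretreated (SD, n = 4) and 60.5 ± 26.8 CPM in GalN/LPS livers (n = 3), a log2 fold change of 2.08 ± 0.58 (adjusted p = 0.00755). Its change in GalN/LPS against saline livers did not pass (0.68 ± 0.59), though it did without saline 3 (1.93, adjusted p = 0.00614). The insulin receptor substrate Irs2 was lower in pretreated against GalN/LPS livers (-1.44 ± 0.42; adjusted p = 0.0103, but 0.0534 without GalN/LPS 2 and 0.0517 without GalN/LPS 3) and higher in GalN/LPS than in saline livers (1.75 ± 0.46). GalN/LPS 1, at 8.07 CPM, lay within the saline range of Irs2 (4.58 to 9.99 CPM). GalN/LPS 2 and 3 were at 33.1 and 31.4 CPM. The glucocorticoid receptor Nr3c1 (-1.0 ± 0.14 and -0.75 ± 0.14) and the kinase subunit Pik3r1 (-1.32 ± 0.18 and -1.68 ± 0.18) were lower in both of these comparisons. With library totals the first count was 1 higher and 11 lower, and with hepatocyte marker factors 1 higher and 12 lower.

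Of 26 transcriptional regulators of glucose genes, 5 were higher and 12 lower in pretreated against GalN/LPS livers (median -0.42), where 24.4% of all genes were higher and 30.1% lower. In GalN/LPS against saline livers 2 were higher and 14 lower (median -0.79), where 27.4% of all genes were higher and 25.6% lower. Cebpa, a factor of the mature hepatocyte, averaged 18.8 ± 12.4 CPM in pretreated (SD, n = 4), 54.9 ± 18.7 in GalN/LPS, 489.7 ± 67.9 in dmPGE2 and 489.9 ± 25.1 CPM in saline livers (SD, n = 3 each). Its log2 fold change was -1.54 ± 0.35 in pretreated against GalN/LPS livers and -3.16 ± 0.39 in GalN/LPS against saline livers. Foxo3, a relative of Foxo1, was at -0.70 ± 0.15 and -1.42 ± 0.16, and both passed. The coactivator Ppargc1a, which works with FOXO1 and HNF4A on Pck1 and G6pc, was higher in pretreated against GalN/LPS livers (0.83 ± 0.25) and lower in GalN/LPS than in saline livers (-1.71 ± 0.25). Hnf4a was at 0.63 ± 0.18 in pretreated against GalN/LPS livers, which passed with all libraries but not without GalN/LPS 1 (adjusted p = 0.0533), and at 0.29 ± 0.19 in GalN/LPS against saline livers, which did not. The rises of Ppargc1a and Hnf4a did not pass with library totals (0.33 and 0.14) or hepatocyte marker factors (0.13 and -0.06), where 0 of the 26 were higher and 18 lower by edgeR's test.

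**Figure D5:**
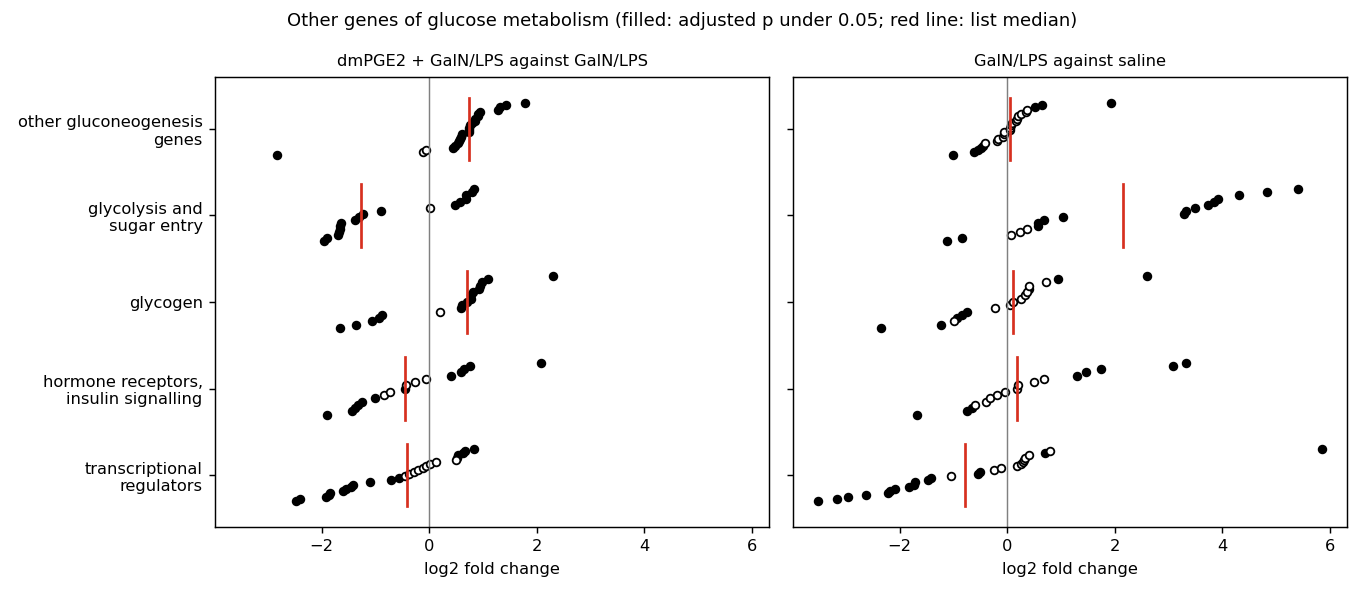
Log2 fold changes of the genes of 5 lists (one point a gene, sorted within its list; filled points have adjusted p under 0.05; red lines are list medians) in pretreated against GalN/LPS livers and in GalN/LPS against saline livers. Other gluconeogenesis genes lie mostly above zero in the first comparison and around zero in the second, while glycolysis genes have medians of -1.26 and 2.16.

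In dmPGE2 against saline livers 0 of the 102 genes of these 5 lists passed edgeR's test with TMM scaling, and 24 had an unadjusted p under 0.05. With hepatocyte marker factors 1 passed, the lipid-sensing nuclear receptor Ppara, which was among the genes named for the smallest adjusted p in this comparison. With no filter on low counts 12 passed, by DESeq2 7, by limma 0 and without saline 1 in edgeR 1.

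The genes with a pattern most like those of G6pc, Pck1 and Slc2a2 were taken by Pearson's r of log2 CPM over the 13 libraries. These genes share the libraries and their scaling, and the values are a description. For G6pc they were Coa7 (r = 0.99), Rpain (0.99) and Nat2 (0.98). For Pck1 they were Pop5 (0.97), Serpina11 (0.94) and Rhbdd3 (0.94), and for Slc2a2 they were Slc10a1, the bile acid uptake carrier (0.97), Pdk1 (0.96) and Bbox1 (0.96).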

How the data were processed

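Liver RNA (1 µg a library, NEBNext Ultra kit per the labels' protocols) was sequenced in 13 libraries. The submitters' processing notes name HISAT2 and GRCm38/mm10. No version, read counter or strand setting is given in the sources. The authors deposited raw counts per gene and FPKM, which divide counts by gene length and a library denominator. The series text speaks of AILI mice, while the labels give galactosamine with lipopolysaccharide. The labels were followed, and columns named ALF were taken as GalN/LPS.

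Counts of all 13 libraries were fitted with group as the only term in edgeR 4.0.16 (R 4.3.3): filterByExpr, TMM, the quasi-likelihood F test, two-sided, and Benjamini-Hochberg adjustment over 14280 genes at 0.05. The genes kept hold 99.9% of counts. No replicates agreed within counting noise. Alternatives used limma 3.58.1 on log2(FPKM + 1), DESeq2 1.42.0, other scalings, no filter, a replicate block, only the groups compared, and each library left out (for list genes, added after their values were seen). List entries (162) all matched the table. Genes named from a list had the smallest adjusted p in a comparison with a group mean of at least 5 CPM, or were always to be named (Ppargc1a, Irs2, Igfbp1, Gys2, Pygl, Hnf4a, Cebpa and Alb), and some are not reported here. The genes and lists were chosen with earlier results of these data known. Promoters are from RefSeq and matched by symbol for 9 of 9 genes.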

Additional observations from a re-analysis of the deposited data

Results flagged for a closer look

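In 5 genes the effect of GalN/LPS differed between livers with and without dmPGE2 by the interaction term of the edgeR fit. The differences on the log2 scale were 2.30 for Pck1, 0.88 for G6pc, 0.56 for Slc37a4, 0.97 for Pfkfb1 and -0.78 for Foxo1. The adjusted p was 8.68e-05, 0.00715, 0.0456, 0.0420 and 0.0207 in the same order. The interaction of Pck1 passed in all 20 alternatives run, that of G6pc in 18, Foxo1 in 15, Pfkfb1 in 9 and Slc37a4 in 3.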

How the results depend on the processing

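In GalN/LPS against saline livers 5 genes were called under each of the 8 alternatives other than left-out libraries, and 4 to 5 with each library left out. In pretreated against GalN/LPS livers 9 were called, 5 with library totals and 3 with hepatocyte marker factors, and 9 in every run with a library left out. In dmPGE2 against saline livers 0 were called by edgeR, 1 with hepatocyte marker factors, 1 with no filter, 1 by limma and 2 by DESeq2, and 0 to 1 with libraries left out (1 without saline 1). In pretreated against saline livers 6 were called, and 6 to 7 with libraries left out. The interaction called 5, 2 with library totals, 3 with hepatocyte marker factors, 2 by limma and 3 with the replicate block, and 2 to 6 with libraries left out. The cause of these shifts was not tested.

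Single genes reversed as follows. With library totals, pretreated against saline livers gave -0.41 for Pck1, -0.10 for Fbp1 and -0.50 for Pklr, and the interaction gave -0.42 for Fbp1, -0.15 for Pcx, -0.011 for Slc2a2, -0.018 for Slc37a4 and -0.16 for Pklr. With hepatocyte marker factors, pretreated against saline livers gave -0.60 for Pck1, -0.28 for Fbp1, -0.076 for Slc2a2, -0.026 for Slc37a4 and -0.70 for Pklr. The interaction gave -0.053 for G6pc, -0.76 for Fbp1, -0.48 for Pcx, -0.34 for Slc2a2, -0.35 for Slc37a4 and -0.48 for Pklr. The same factors gave -0.12 for G6pc in pretreated against GalN/LPS livers and 0.037 for Foxo1 in dmPGE2 against saline livers. With single libraries left out, Slc2a2 in GalN/LPS against saline livers ranged from -0.14 to 0.017 (above zero without saline 2). In pretreated against saline livers Pklr ranged from -0.0097 to 0.31 (below zero without saline 3) and Pfkfb1 from -0.36 to 0.13 (above zero without saline 1 or pretreated 2, 3 or 4). Pfkfb1 was at 0.10 there with the replicate block.

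Replicate numbers did not pair the libraries: correlations of same-numbered pairs lay between -0.31 and 0.09, with 0 of 18 over 0.1. The deposited FPKM carry the authors' own scaling and so are no independent check of it. With 3 or 4 libraries a group and 9 residual degrees of freedom, small differences are not detectable.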
